A study of Homo sapiens with 4 samples.

Results

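YAP1 and 9 genes that act with it or are read as its targets were followed on the 4 arrays of the study, as all probe sets whose annotation named 1 of these genes alone. They were 22 probe sets for 10 genes, of 41097 probe sets that named 1 gene and 19775 genes in all. The arrays, Affymetrix U133 Plus 2.0, were run on 2 human breast cancer cell lines, and the 4 groups held 1 array each: MDA-MB-231 cells with 100 μM JPH203 for 24 h, MDA-MB-231 cells with Captisol, T-47D cells with 100 μM JPH203 for 24 h, and T-47D cells with Captisol. JPH203 is an inhibitor of LAT1, a transporter of large neutral amino acids, and Captisol, a modified cyclodextrin, is the vehicle given at the same concentration to the controls. MDA-MB-231 is a triple negative line, and T-47D came from a ductal carcinoma and expresses the estrogen receptor. The comparison asks which genes JPH203 moved in each line, and how the lines differed without it. No array was repeated, so no ratio here has a replicate error or a p-value, and the number of arrays limits the precision.

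The Hippo pathway is a kinase cascade that restrains growth in response to cell contact, cell shape and nutrients. Its last kinases, LATS1 and LATS2, phosphorylate the coactivators YAP (YAP1) and TAZ (WWTR1), which are then held in the cytoplasm or degraded. When they are not phosphorylated, YAP and TAZ enter the nucleus and bind TEAD transcription factors, which carry them to the DNA motif GGAATG at genes such as CCN1, CCN2 and ANKRD1. AMOTL2, an angiomotin that binds YAP, and LATS2 are themselves targets that feed back on the pathway. Phosphorylation and location of YAP are not seen by an array, which measures mRNA alone.

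The TEAD motif was searched, as the letters GGAATG on either strand, in the RefSeq promoter windows (GRCh38.p14, 250 bases before to 50 after each gene start) of the members. Windows were found for 7 of the 10 members, 10 windows in all, and 6 of those windows, 1 each for 6 genes, held the motif, while both windows of WWTR1 held none. Of all 35116 windows of this length, 14.0% held it at least once, 1.37% at least 2 times and 0.128% at least 3 times. CCN2 held it 3 times, starting 169, 104 and 95 bases before the gene start, and ANKRD1 held it 2 times, 220 and 128 bases before the start. YAP1 held 1 match 162 bases before its start, AMOTL2 1 on the opposite strand 69 bases before 1 of its starts, AXL 1 on the opposite strand 212 bases before 1 of its starts, and LATS2 1 that began 9 bases after its start. A match of letters is a description and not a binding site. The 250 bases before the start are shown for the 2 targets with repeated matches, and for YAP1 and AMOTL2, whose signal was lower with JPH203 in the T-47D line, with the motif in capitals:
CCN2 (chr6:131951373-131951622, minus strand): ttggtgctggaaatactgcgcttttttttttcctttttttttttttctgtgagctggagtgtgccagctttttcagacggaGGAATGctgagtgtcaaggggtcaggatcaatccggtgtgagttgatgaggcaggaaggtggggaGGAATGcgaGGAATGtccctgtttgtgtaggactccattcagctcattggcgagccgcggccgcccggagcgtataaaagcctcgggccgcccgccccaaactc
ANKRD1 (chr10:90921088-90921337, minus strand): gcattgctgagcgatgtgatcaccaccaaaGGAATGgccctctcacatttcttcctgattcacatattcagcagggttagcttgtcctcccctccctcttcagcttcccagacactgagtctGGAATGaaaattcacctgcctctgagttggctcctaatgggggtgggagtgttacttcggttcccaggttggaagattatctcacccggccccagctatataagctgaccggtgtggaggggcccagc
YAP1 (chr11:102110197-102110446, plus strand): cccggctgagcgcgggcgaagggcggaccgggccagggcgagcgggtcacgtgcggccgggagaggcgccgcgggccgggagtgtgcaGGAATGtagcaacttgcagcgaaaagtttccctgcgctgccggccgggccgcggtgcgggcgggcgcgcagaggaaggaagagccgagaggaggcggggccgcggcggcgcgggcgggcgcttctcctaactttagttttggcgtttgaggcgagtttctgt
AMOTL2 (chr3:134374448-134374697, minus strand): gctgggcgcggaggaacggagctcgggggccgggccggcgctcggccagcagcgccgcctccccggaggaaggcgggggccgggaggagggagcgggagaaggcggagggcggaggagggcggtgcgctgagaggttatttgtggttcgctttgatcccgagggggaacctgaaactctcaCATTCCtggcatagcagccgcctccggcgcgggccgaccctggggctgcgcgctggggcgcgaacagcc

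The values are linear signal intensities. A doubling or halving of the signal, that is a ratio of 2 or more or of 0.5 or less, was called a change if both arrays of the line reached a minimum signal of 100. Each gene was read on the probe set with the highest mean over the 4 arrays. The arrays were scaled, so that a lower signal is a lower share of the RNA, and fewer cells with a transcript cannot be told apart from less of it per cell. The arrays had 10831 to 11857 probe sets at 100 or more. Without JPH203, 7 of 9 mesenchymal markers were measured and all 7 were higher by 2-fold or more in MDA-MB-231, while all 10 luminal markers were lower by 2-fold or more than in T-47D. Of 5 blood cell markers none reached 100 on any array, the highest being HBB at 55.4. In the MDA-MB-231 line the middle 95% of genes had JPH203 over control ratios between 0.778 and 1.32, and in the T-47D line between 0.503 and 1.97, so the same ratio stands farther out in the MDA-MB-231 line. The ACTB signal at the 3-prime end over that at the 5-prime end, which rises with RNA degradation, was 1.44 with JPH203 and 1.45 in the control for MDA-MB-231 cells, and 1.72 with JPH203 and 1.39 in the control for T-47D cells. The same measure of GAPDH was 1.01 with JPH203 and 0.987 in the control for MDA-MB-231 cells, and ran the other way in T-47D cells, at 0.867 with JPH203 and 0.940 in the control.

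**Figure D1:**
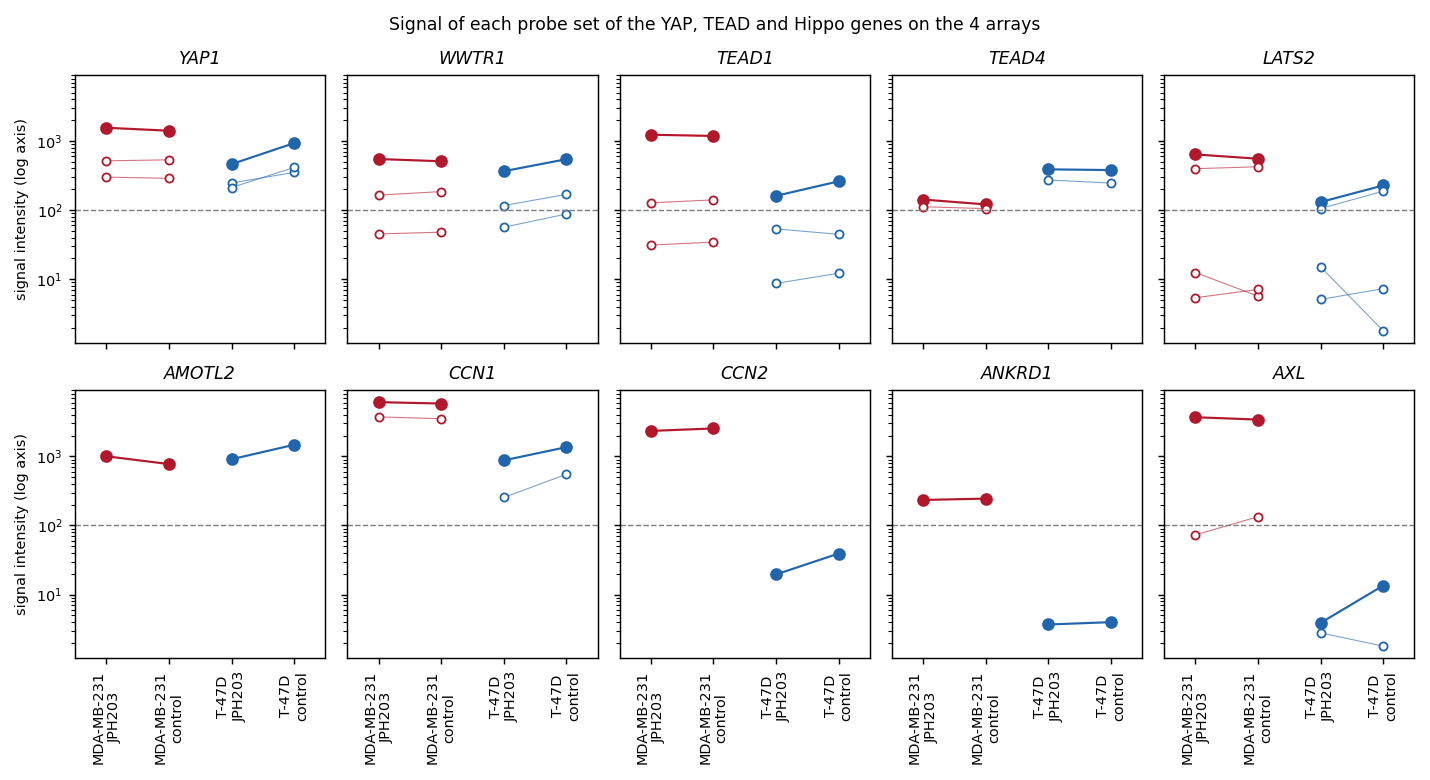
Signal (y axis, intensity, logarithmic) of every probe set of the 10 genes on the 4 arrays (x axis), MDA-MB-231 in red and T-47D in blue, with 1 point per array. Filled points are the brightest probe set of a gene, open points its others, lines join the 2 arrays of a line and a dashed line is drawn at the minimum of 100. In the T-47D line all 3 YAP1 probe sets lie lower with JPH203 than in the control, and CCN2, ANKRD1 and AXL lie under the dashed line.

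In the T-47D line the mRNA of YAP1, the coactivator at the end of the pathway, fell with JPH203 on its brightest probe set, and no other member was called. Of the 7 members that both T-47D arrays measured above the minimum, 6 had a lower signal with JPH203 than in the control, at ratios of 0.497 to 0.671, and TEAD4 had a ratio of 1.02. Over all 6416 genes measured in these cells 4.64% were called, with 2.42% of all genes called lower, and 51.7% had a ratio below 1. At 1.5-fold in place of 2-fold, 5 of the 7 were lower and none higher, where 13.6% of all genes were lower. The median log2 ratio was -0.69 over the 7 members, against -0.02 over all genes. In the MDA-MB-231 line none of the 10 members was called, at 2-fold or at 1.5-fold, where 0.103% and 0.871% of 6777 genes were, and their ratios lay between 0.921 and 1.30, with a median log2 ratio of 0.11, against -0.01 over all genes.

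YAP1 was the member with the most probe sets above the minimum, 3 of 3 on all 4 arrays. On the brightest it had a signal of 1551 with JPH203 and 1405 in the control in the MDA-MB-231 line, and 462 with JPH203 and 930.2 in the control in the T-47D line. The T-47D array with JPH203 was thus the lowest of the 4, and the ratios were 1.10 in MDA-MB-231 and 0.497 in the T-47D line. On the second probe set the signals were 515 with JPH203 and 533.5 in the control in the MDA-MB-231 line, and 212 and 413.5 in the T-47D line, ratios of 0.965 and 0.512. On the third they were 300.0 and 288 in the MDA-MB-231 line and 246 and 351.2 in the T-47D line, ratios of 1.04 and 0.701. All 3 therefore lay below their control in the T-47D line, 1 of them past the threshold and 1 just short of it, while in the MDA-MB-231 line 1 lay below and 2 above. Probe sets of 1 gene share the RNA and are not replicates. Among the 500 T-47D probe sets nearest in signal to the brightest, 95% had ratios between 0.486 and 1.91, so that YAP1 lay inside this range, with 2.8% of them below it. The call was lost after median centring, at 0.513, after quantile normalization, at 0.530, with a pseudocount of 16, at 0.505, and with the mean of the 3 probe sets, at 0.563.

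WWTR1, which encodes TAZ, the paralog of YAP, had a signal of 548 with JPH203 and 508 in the control in the MDA-MB-231 line, and 365 and 544 in the T-47D line. The T-47D array with JPH203 was again the lowest, with a ratio of 0.671 against 1.08 in the MDA-MB-231 line, neither past the threshold. Its second measured probe set gave 0.689 in T-47D and 0.888 in the MDA-MB-231 line. The third was below 100 on all 4 arrays and gives no size.

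The TEAD factors, which bind DNA for YAP and TAZ, did not move alike in the T-47D line. TEAD1 had signals of 1230.0 with JPH203 and 1181 in the control in the MDA-MB-231 line, and 161 and 261 in the T-47D line, ratios of 1.04 and 0.616. The other TEAD1 probe sets were below 100 on both T-47D arrays, so that this ratio rests on 1 probe set. TEAD4 had 142 and 121 in the MDA-MB-231 line, and 388 and 379 in the T-47D line, ratios of 1.18 and 1.02. Its other probe set gave 1.07 and 1.11. Of the members measured in the T-47D line TEAD4 alone was not below its control on the deposited scale. Its ratio was 0.725, or -0.46 on the log2 scale, once the arrays were scaled to their poly-A spike-ins. That scaling put the median log2 ratio of all T-47D genes at -0.41, near that of TEAD4.

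LATS2, a core kinase of the pathway, and AMOTL2, both inhibitors of YAP, had lower signals with JPH203 in the T-47D line and higher signals in the MDA-MB-231 line, none of them called. LATS2 had 638 with JPH203 and 553 in the control in the MDA-MB-231 line, and 131 and 227 in the T-47D line, ratios of 1.15 and 0.575. The next LATS2 probe set gave 0.936 in the MDA-MB-231 line, on the other side of 1, and 0.560 in the T-47D line. The remaining 2 stayed between 1.8 and 15.1 on all arrays and measure nothing here, but they bring the mean of the 4 probe sets below the minimum in the T-47D line and turn its ratio there to 1.17. AMOTL2, measured by 1 probe set, had 1003 and 773 in the MDA-MB-231 line, and 909 and 1471 in the T-47D line. Its ratio of 1.30 was the highest of any member in the MDA-MB-231 line, at the edge of the range of 0.803 to 1.30 that held 95% of probe sets of similar signal, and its ratio in the T-47D line was 0.618.

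CCN1 and CCN2, secreted matricellular proteins widely used as readouts of YAP and TEAD activity, were bright in the MDA-MB-231 line. CCN1 had 6082.5 with JPH203 and 5808 in the control in the MDA-MB-231 line, and 875 and 1359 in the T-47D line, ratios of 1.05 and 0.644. On its other probe set, of the _s_at kind, which may match several transcripts, it had 3730.1 and 3500.0 in the MDA-MB-231 line, and 254 and 551 in the T-47D line. That probe set fell in the T-47D line at a ratio of 0.462, where 2.44% of the measured probe sets were called lower, below the 0.483 to 2.10 that held 95% of probe sets of similar signal, while its MDA-MB-231 ratio was 1.07. CCN1 is thus called in the T-47D line where any probe set is enough and not on the brightest. CCN2 had 2333 and 2534 in the MDA-MB-231 line, a ratio of 0.921 that became 1.02 with poly-A spike-in scaling, and 19.6 and 39.3 in the T-47D line, below the minimum on both arrays, where no ratio is read.

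ANKRD1, an ankyrin repeat protein best known from muscle and a target of YAP and TEAD, had 234 with JPH203 and 245 in the control in the MDA-MB-231 line, a ratio of 0.955 that became 1.06 with the same scaling, and 3.7 and 4.0 in the T-47D line. AXL, a receptor tyrosine kinase of the GAS6 ligand, had 3681 and 3403.5 in the MDA-MB-231 line, a ratio of 1.08, and 3.9 and 13.5 in the T-47D line. Its other probe set had 73.0 and 134 in the MDA-MB-231 line, the first of them below the minimum, and the mean of both probe sets turned the ratio to 0.767. Neither gene was measured in the T-47D line, so that any JPH203 response of CCN2, ANKRD1 and AXL could be read in the MDA-MB-231 line alone.

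Counted over probe sets rather than genes, 11 of the 13 measured in the T-47D line had a ratio below 1, where 51.4% of all 10258 did, and the 2 above 1 were those of TEAD4. In the MDA-MB-231 line 6 of 17 lay below 1, where 52.3% of 11370 did.

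**Figure D2:**
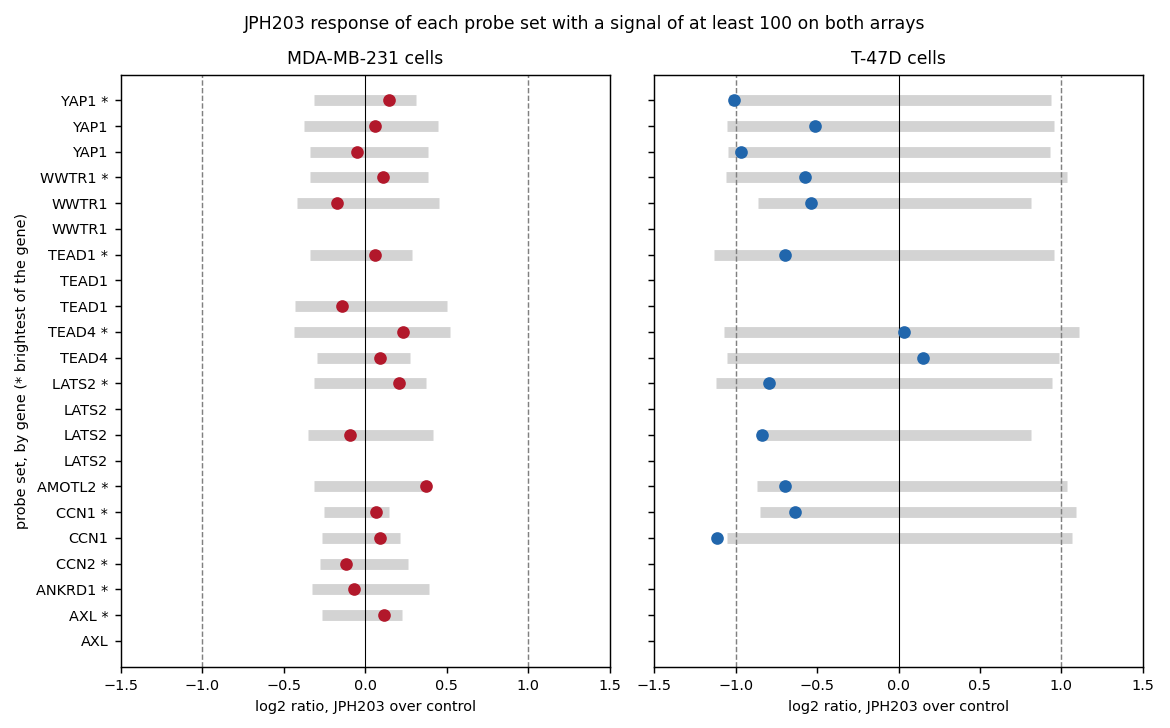
Each probe set (y axis, by gene, a star marking the brightest) at its log2 ratio of JPH203 to control (x axis) in the MDA-MB-231 line (red, at left) and in T-47D cells (blue, at right), where both arrays reached 100. Grey bars span 95% of the ratios of the 500 probe sets nearest in signal and dashed lines mark 2-fold; in the T-47D line the points other than those of TEAD4 lie left of 0, and the second CCN1 point lies left of its bar.

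Ratios moved with gene length in the T-47D line. With the measured genes in 4 length classes of 1604 genes, the longest class, above 59.2 kb, had a median ratio of 0.823, and the shortest, up to 10.9 kb, of 1.10. YAP1, WWTR1, TEAD1, TEAD4 and LATS2 are in the longest class, AMOTL2 is in the next to shortest, with a median of 1.05, and CCN1 in the shortest. CCN1 and AMOTL2 thus had ratios of 0.644 and 0.618 among short genes, and TEAD4 1.02 among long ones. With the length trend taken out, a choice made after the values were seen, the same 6 members were below 1, their median with TEAD4 was -0.57 on the log2 scale, and YAP1 was at 0.601 and not called. In the MDA-MB-231 line the medians of the 4 classes lay between 0.985 and 1.02. The part of gene length, or of the 3-prime to 5-prime ratio, in the T-47D ratios was not tested.

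Around the members, 51 further genes in 4 lists were read in the same way: core kinases and their adaptors, upstream regulators, other TEAD and VGLL cofactors, and other reported targets of YAP and TEAD. The lists held 49 genes with a probe set of their own. In the T-47D line 20 were measured, 2 fell and none rose, where 4.64% of all genes were called and 2.42% called lower, with a median log2 ratio of -0.37 over the 20, against -0.02 over all genes. Both that fell were targets. ASAP1, an ARF GTPase-activating protein, had 200.2 with JPH203 and 415 in the control, a ratio of 0.482, and CRIM1, a transmembrane protein that binds growth factors, had 244.5 and 522, a ratio of 0.468. Both calls were lost with quantile normalization, with the mean of probe sets and with the length trend removed, and that of ASAP1 also with a pseudocount of 16. The other CRIM1 probe sets had ratios of up to 0.548 and the other measured ASAP1 probe set 0.635. Of the 5 targets measured in the T-47D line 4 were below 1, with a list median of -0.91. MYOF, a membrane repair protein, had 993 and 1859.7, a ratio of 0.534. BIRC5, the mitotic gene survivin, was the target above 1, at 1.76.

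Of 4 core kinases and adaptors measured in the T-47D line none was called, with a list median of -0.03. MOB1A, an activator of LATS, was at 1.14 and STK3, the kinase MST2, at 1.09, while STK4 was at 0.881 and SAV1 at 0.8545. The measured MOB1A probe sets lay on both sides of 1, from 0.658 to 1.33. The minimum on both arrays leaves out genes that reached it on 1 array alone, where no ratio is read as a size. In the T-47D line these were 7 list genes, named after their values were seen. All 7 reached it on the control array, so that a lower signal with JPH203 was set by the filter. With JPH203 and in the control, LATS1 had 76.7 and 173, MOB1B 68.0 and 149, LIMD1 82.0 and 212, and THBS1 91.4 and 203.3. NF2 had 91.8 and 133.4, AMOTL1 52.4 and 100.3, and TEAD2 88.4 and 113.0. Where the minimum on 1 array was enough, 3.91% of all genes were called lower. Of 8 upstream regulators none was called, with a median of -0.33 and 6 below 1. AJUBA, a LIM protein that binds LATS, was at 0.815, with its measured probe sets down to 0.563. WWC1 was at 0.553 and, on its other measured probe set, at 0.458, so that it is called where any probe set is enough. TAOK3 at 1.11 and CRB3 at 1.37 were above 1. Of 3 other TEAD and VGLL genes none was called, with a median of -0.47, VGLL4, a TEAD cofactor that competes with YAP, at 0.723 and VGLL1 at 0.648.

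In the MDA-MB-231 line none of the 36 list genes measured was called, where 0.103% of all genes were, with a median log2 ratio of 0.04. Of the 16 targets measured 3 were below 1 and the list median was 0.11, with THBS1, thrombospondin, at 1.27 and MYOF at 1.07. AJUBA was at 1.01, FRMD6 at 1.07 and VGLL4 at 0.756.

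**Figure D3:**
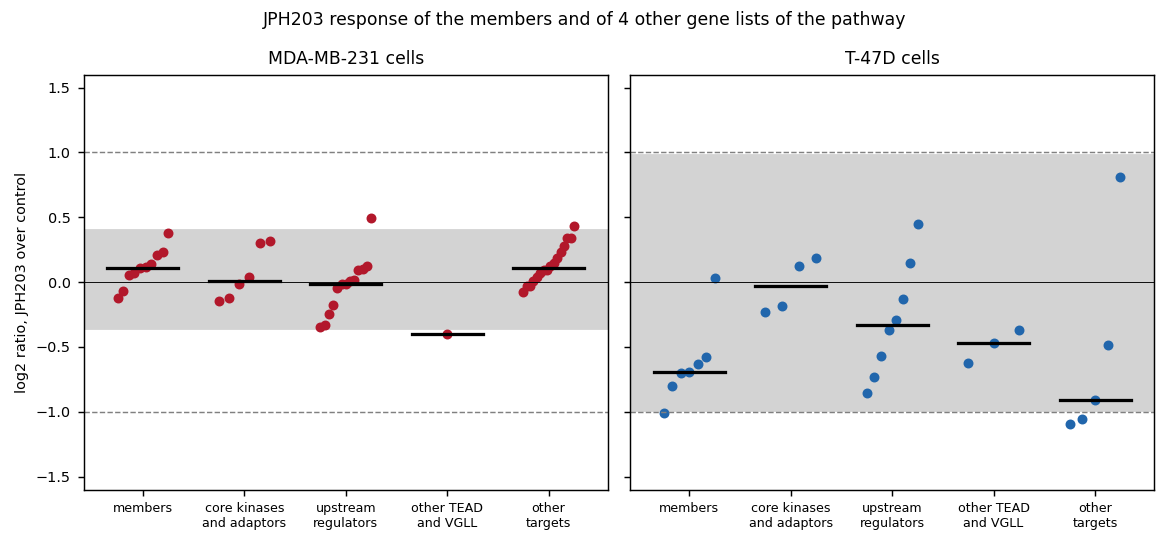
Log2 ratio of JPH203 over control (y axis) of each gene that reached 100 on both arrays, for the members and the 4 other lists (x axis), in the MDA-MB-231 line (red, at left) and in T-47D cells (blue, at right). Black bars are list medians, the grey band spans 95% of all genes and dashed lines mark 2-fold; in the T-47D line the medians lie at -0.69 for the members and -0.91 for the other targets, against -0.03 for the core kinases and adaptors.

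Without JPH203 both coactivators were within 2-fold between the lines. The 4 members read here as targets alone, CCN1, CCN2, ANKRD1 and AXL, were higher in MDA-MB-231 cells. LATS2 and AMOTL2, inhibitors that are also targets, went opposite ways, at ratios of 2.44 and 0.526. Of the 10 members, 6 had 2-fold or more the signal in MDA-MB-231 than in the T-47D line and 1, TEAD4, 0.5-fold or less, where 100 on 1 of the 2 control arrays was enough. Over all 8294 such genes 47.8% differed 2-fold, 23.5% higher and 24.3% lower in the MDA-MB-231 line, so that a difference between these lines is common. CCN2, ANKRD1 and AXL passed the minimum through the MDA-MB-231 array alone, so that a ratio above 1 was set by the filter. Of the 7 members at 100 or more on both control arrays 3 were higher and 1 lower, with a median log2 ratio of 0.59. Of all 5688 genes measured on both, 16.3% were higher and 16.1% lower, with a median of 0.02. YAP1 itself was at 1405 in MDA-MB-231 and 930.2 in the T-47D line, a ratio of 1.51, with its other probe sets at 1.29 and 0.820, and WWTR1 was at 508 and 544, a ratio of 0.934, neither past the threshold.

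AXL, at 3403.5 in MDA-MB-231 and 13.5 in the T-47D line, was at least 34.0-fold higher in the MDA-MB-231 line when the T-47D signal is set to the minimum of 100, a floor used here for signals below it. On the same floor CCN2, at 2534 and 39.3, was at least 25.3-fold higher and ANKRD1, at 245 and 4.0, at least 2.45-fold. CCN1, above the minimum in both lines, was 4.27-fold higher on the brightest probe set and 6.35-fold on the other, above the ranges of 0.256 to 2.71 and 0.197 to 4.27 that held 95% of probe sets of similar signal. TEAD1 was 4.53-fold higher, at 1181 and 261, and LATS2 2.44-fold, at 553 and 227, with 2.26 on its next probe set. TEAD4 ran the other way, at 121 in MDA-MB-231 and 379 in the T-47D line, a ratio of 0.319, with 0.427 on its other probe set. AMOTL2, at 773 and 1471, had a ratio of 0.526, short of the threshold. Scaling to the poly-A spike-ins moved the median log2 ratio of all genes between the lines to 1.68. On that scale TEAD4 was at 0.927 and no longer called. YAP1 at 4.39 and WWTR1 at 2.72 were past the threshold, and WWTR1 and AMOTL2, the last at 1.53, were on the other side of 1, while the 6 higher genes kept their direction.

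Of 41 list genes measured in this way 21 were higher in the MDA-MB-231 line by 2-fold or more and 6 were lower. Of 16 targets 13 were higher and 1, FJX1, was lower, where 23.5% and 24.3% of all genes were. Of these 13 only ASAP1, CRIM1 and THBS1 reached 100 on both control arrays, as did FJX1. The rest of the 13 passed the minimum through the MDA-MB-231 array alone, so that a ratio above 1 was set by the filter. Where both control arrays reached 100, 16.3% of 5688 genes were higher and 16.1% lower. On the floor of 100 these 13 include genes short of 2-fold. FOXF2 had 106.9 in MDA-MB-231, RBMS3 169.6, DOCK5 191.7 and CCDC80 199.2. In the other lists FAT4, NF2 and TEAD3 are short of it too. F3, tissue factor, had 3196 in MDA-MB-231 and 7.6 in the T-47D line, NT5E, the ecto-nucleotidase CD73, had 2068 and 5.6, and IGFBP3, which binds insulin-like growth factors, had 571 and 8.1. RBMS3, an RNA-binding protein, had 169.6 and 3.0. Of 6 core kinases and adaptors STK4 at 3.03, SAV1 at 2.52 and STK3 at 2.08 were higher and none lower. Of 15 upstream regulators 5 were higher and 3 lower in the MDA-MB-231 line, against the same 23.5% and 24.3% of all genes. Of these, PTPN14 at 2.79 and AMOTL1 at 6.62 were higher, and CSNK1D at 0.384 lower, with 100 or more on both control arrays. The other CSNK1D probe set measured on both was at 0.882. The rest passed the minimum through 1 array alone, which set their direction. FRMD6, a FERM domain protein, had 2030.4 and 32.6, MAP4K4, a kinase that acts on LATS, had 361 and 50.9, and FAT4, an atypical cadherin, had 171 and 11.2, while CRB3, an apical polarity protein, had 3.0 in MDA-MB-231 and 352 in the T-47D line. Of 4 TEAD and VGLL genes TEAD3, with 64.5 and 129.5, and VGLL1, with 0.2 and 272, were lower in the MDA-MB-231 line. Both passed the minimum through the T-47D array alone.

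**Figure D4:**
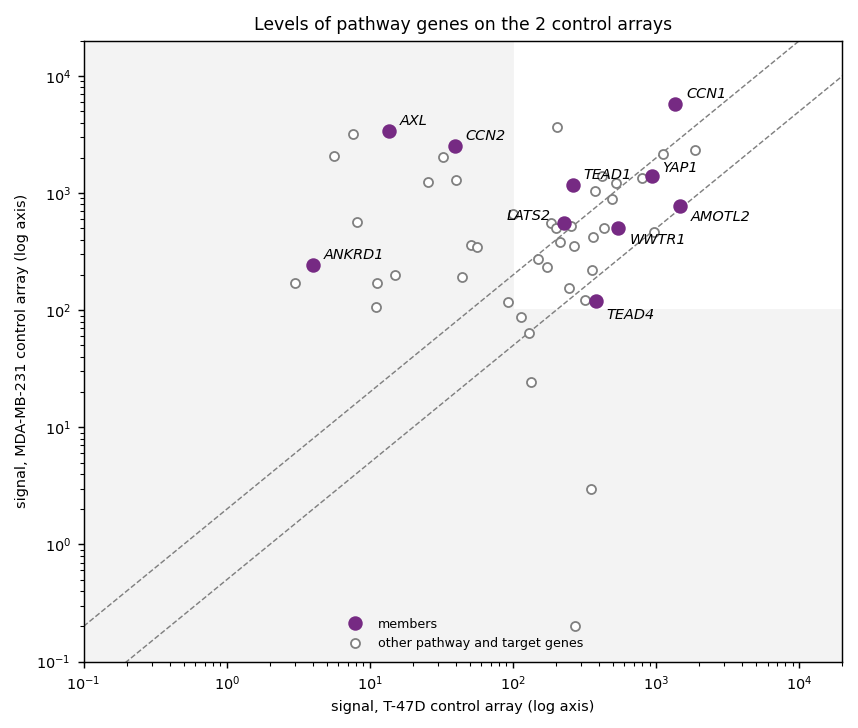
Signal of the members (purple) and of the other pathway and target genes (open) on the control array of MDA-MB-231 cells (y axis) and of T-47D cells (x axis), both axes logarithmic, each point being 1 gene with at least 100 on 1 of the 2 arrays. Dashed lines mark 2-fold and the shaded area a signal below 100; CCN2, AXL and ANKRD1 lie in the shaded area for T-47D cells, and TEAD4 lies below the lower dashed line.

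The genes whose 4 log2 signals, each centred on its own mean, lay nearest to those of YAP1 among 5264 other genes with at least 100 on all arrays were KHSRP, MINPP1, TGFBR1, TJP1 and LPP, at Euclidean distances of 0.0327 to 0.0971. KHSRP had 1405 with JPH203 and 1307 in the control in the MDA-MB-231 line, and 421 and 842 in the T-47D line. Of the members LATS2 came nearest, at rank 514 and a distance of 0.635, and TEAD4 farthest, at rank 4819. Such a likeness rests on 4 values a gene.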

How the data were processed

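Total RNA of the 4 cultures was labelled with biotin and hybridised to 1 array per condition. The authors deposited linear signal intensity values for 54675 probe sets, made with GCOS, per the labels, whose version is not given in the sources used here. After 2% of values were trimmed at either end, every array had a mean of 100.0, as scaling to 100 gives. The platform annotation named 1 gene for 41097 probe sets, several for 1801, and did not list 11777, which stay unnamed. Of the single-gene probe sets 41043 matched RefSeq by gene identifier. Promoter sequences are RefSeq's (GRCh38.p14). The members and lists were chosen with earlier results of these data known.

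Ratios were taken of the deposited signals. The study's 2-fold threshold was used, with a chosen minimum signal of 100, and no test was run, since each group held 1 array. All 10 members are named, and of each other list up to 4 called genes by size of change, or its 2 brightest. Further list genes, such as MYOF, BIRC5, SAV1 and WWC1 in the T-47D line, are named outside this rule, with their values known. Of 51 list genes 2 had no probe set of their own and are not reported. Alternatives were median centring, quantile normalization, scaling to 27 poly-A spike-in probe sets, a pseudocount of 16, minimum signals of 50 and 200, thresholds of 1.5-fold and 3-fold, and any or the mean of a gene's probe sets or those without _s_at, _x_at and _a_at. A minimum on 1 array and removal of the length trend (lowess, span 0.4) were added later. The tools were Python 3.11.15, pandas 2.3.3, numpy 2.4.6, statsmodels 0.14.6, scipy 1.17.1 and, for figures, matplotlib 3.10.9.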

Additional observations from a re-analysis of the deposited data

Results flagged for a closer look

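Of the 7 members above the minimum on all 4 arrays, 6 were drawn out because the JPH203 array lay above its control in the MDA-MB-231 line and below it in the T-47D line on the brightest probe set. The MDA-MB-231 log2 ratio exceeded the T-47D one by 1.15 for YAP1, 0.68 for WWTR1, 0.76 for TEAD1, 1.00 for LATS2, 1.07 for AMOTL2 and 0.70 for CCN1. With 1 array per condition these differences were not tested. Of all 5265 genes with such signals 54.5% had opposite directions in the 2 lines, in either order, so that opposite signs alone set no gene apart. The share with the order of these 6 members was not counted. On the other measured probe set the MDA-MB-231 ratio of WWTR1, TEAD1 and LATS2 was below 1, at 0.888, 0.907 and 0.936. Of the other YAP1 probe sets 1 was below 1 in that line, at 0.965, and 1 above it, at 1.04.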

How the results depend on the processing

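No paired analysis was possible because each condition had 1 array, and no array could be left out for the same reason. In the T-47D line 1 member was called. The count was 0 with median centring, quantile normalization, a pseudocount of 16, a 3-fold threshold, the mean of probe sets or the length trend removed. It was 2 with any probe set, 4 with poly-A spike-in scaling and 5 at 1.5-fold, all of them lower. Over all genes 562 of 4295 were lower with poly-A spike-in scaling, and 13.6% were lower at 1.5-fold. Of the list genes 2 were called in the T-47D line, against 0 at 3-fold, with the mean of probe sets or with the length trend removed. The count was 1 with quantile normalization (THBS1, with ASAP1 and CRIM1 both lost), with a pseudocount of 16 (CRIM1) or without _s_at, _x_at and _a_at probe sets (ASAP1). It was 3 with poly-A spike-in scaling (SCRIB, MYOF and CRIM1) or with any probe set (WWC1, ASAP1 and CRIM1). It was 6 at a minimum signal of 50 or with the minimum on 1 array, and 7 at 1.5-fold, where 6 were lower and BIRC5 was higher. Over all genes 25.2% were called at 1.5-fold. At a minimum of 50, 187 of 8405 genes were higher and 259 lower, and with the minimum on 1 array 3.91% were lower. With the minimum on 1 array the 4 genes added to the count passed only through the control array, so that this count gives no support to a fall of the list. In the MDA-MB-231 line the count of list genes was 0 and became 1 with the mean of probe sets, which was MYOF. The count of 0 members called in the MDA-MB-231 line held under all alternatives run, and that of 7 members between the control arrays lay between 6 and 9. It was 9 at 1.5-fold, where 67.4% of all genes differed. With poly-A spike-in scaling it was 8, with YAP1 and WWTR1 added and TEAD4 lost. There 6211 of all 8804 genes were higher and 513 lower in the MDA-MB-231 line. Poly-A spike-in scaling moved the median log2 ratio of all genes to -0.41 in T-47D and 0.15 in the MDA-MB-231 line, and the 5 members still measured in the T-47D line were then all below 1. The spike-in signal with JPH203 was 1.41 times that of the control with T-47D cells and 0.899 times with MDA-MB-231 cells. Over all genes in the T-47D line 143 were higher and 155 lower, against 181 and 132 with median centring and 23 and 562 with poly-A spike-in scaling.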
